A study of Mus musculus with 8 samples.

Results

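Enteric neural crest cells, the migrating cells from which enteric neurons and glia arise, are commonly sorted by 2 surface antigens. One is CD271, the p75 neurotrophin receptor encoded by Ngfr, and the other is CD57, a sulfated carbohydrate epitope. The genes described here are Ngfr, 4 genes of enzymes related to the CD57 epitope (B3gat1, B3gat2, B3gat3 and Chst10) and 3 genes of other neurotrophin receptors (Ntrk2, Ntrk3 and Sort1). They were chosen by gene symbol, and all 8 were found among the 18561 genes of the deposited table. The 8 libraries came from the gut of mouse embryos of embryonic day 14.5. Cells stained for CD271 and CD57 were sorted from both groups, with about 200 cells collected in a tube. Of the libraries, 5 were labelled Emb knockdown (kd 1 to 5) and 3 were labelled WT. The sources used here do not say how Emb was lowered, which strain and sex were used or whether the libraries came from separate animals. The p-values therefore cover only how far these libraries vary, and that variation may be technical.

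Neurotrophins are secreted growth factors that bind 2 unrelated kinds of receptor. The Trk receptors are tyrosine kinases, of which TrkB (Ntrk2) binds BDNF and NT-4 and TrkC (Ntrk3) binds NT-3, a factor that supports a part of the enteric neurons. The p75 receptor binds all mature neurotrophins with similar affinity, lacks kinase activity and binds the unprocessed proneurotrophins together with sortilin, encoded by Sort1. The CD57 epitope, also called HNK-1, is built at the ends of sugar chains on adhesion molecules and glycolipids. A glucuronic acid is added by the enzyme encoded by B3gat1 or B3gat2, and a sulfate is then added by the sulfotransferase encoded by Chst10. B3gat3 encodes a related glucuronyltransferase that completes the linker by which glycosaminoglycan chains are joined to proteoglycans.

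The libraries held 20116607 to 26959265 counts, and a count of 0 allowed a level of up to 0.0966 to 0.155 CPM (counts scaled to a TMM-adjusted library size of 1000000), an upper limit of 3 counts that covers counting error only. The libraries labelled kd 1 and 2 stood apart from the other 6. The summed level of 10 leukocyte genes was 11751 to 14889 CPM in these 2, 1008 to 1593 CPM in the libraries labelled kd 3 to 5 and 242 to 328 CPM in WT. The summed level of 10 enteric neural crest progenitor genes, led by Ednrb, was 165 to 210 CPM in these 2, 1033 to 1150 CPM in the libraries labelled kd 3 to 5 and 2869 to 3028 CPM in WT. Emb itself was higher in each library labelled kd (21.4 to 353 CPM) than in any WT library (15.9 to 17.7 CPM), without passing the test (edgeR, adjusted p = 0.217 with 8 libraries and 0.0972 with 6), so the targeted gene went against the labels and every direction below is one between labels. Results for the 8 genes are given with all 8 libraries and with the 6 that remain without these 2, and those for other genes mainly with the 6. Setting them aside rested in part on progenitor genes, so the second comparison is not independent of that choice.

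In the 6 libraries Ngfr was lower and Ntrk3 higher in the libraries labelled kd, and the other 6 genes did not pass the test. With all 8 libraries none of the 8 genes passed. In edgeR's quasi-likelihood test over all genes, 2 of the 8 genes had a Benjamini-Hochberg adjusted p under 0.05 in the 6 libraries, where 20.4% of the 15115 genes tested passed. Of all genes tested, 11.1% passed as higher and 9.37% as lower, so that 54.1% of calls were higher, against 39.2% on log2(FPKM + 1). With 8 libraries 0 of 15411 genes (0.0%) and 0 of the 8 genes passed, and 1 of the 8 (Ngfr) had an unadjusted p under 0.05. DESeq2's Wald test called 1 of the 8 genes with all 8 libraries, again Ngfr, and limma voom with quality weights called Ngfr and Chst10. The median log2 fold change of the 8 genes was -0.08 in the 6 libraries and -0.42 in the 8, beside medians of 0.02 and 0.07 over all genes tested.

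**Figure D1:**
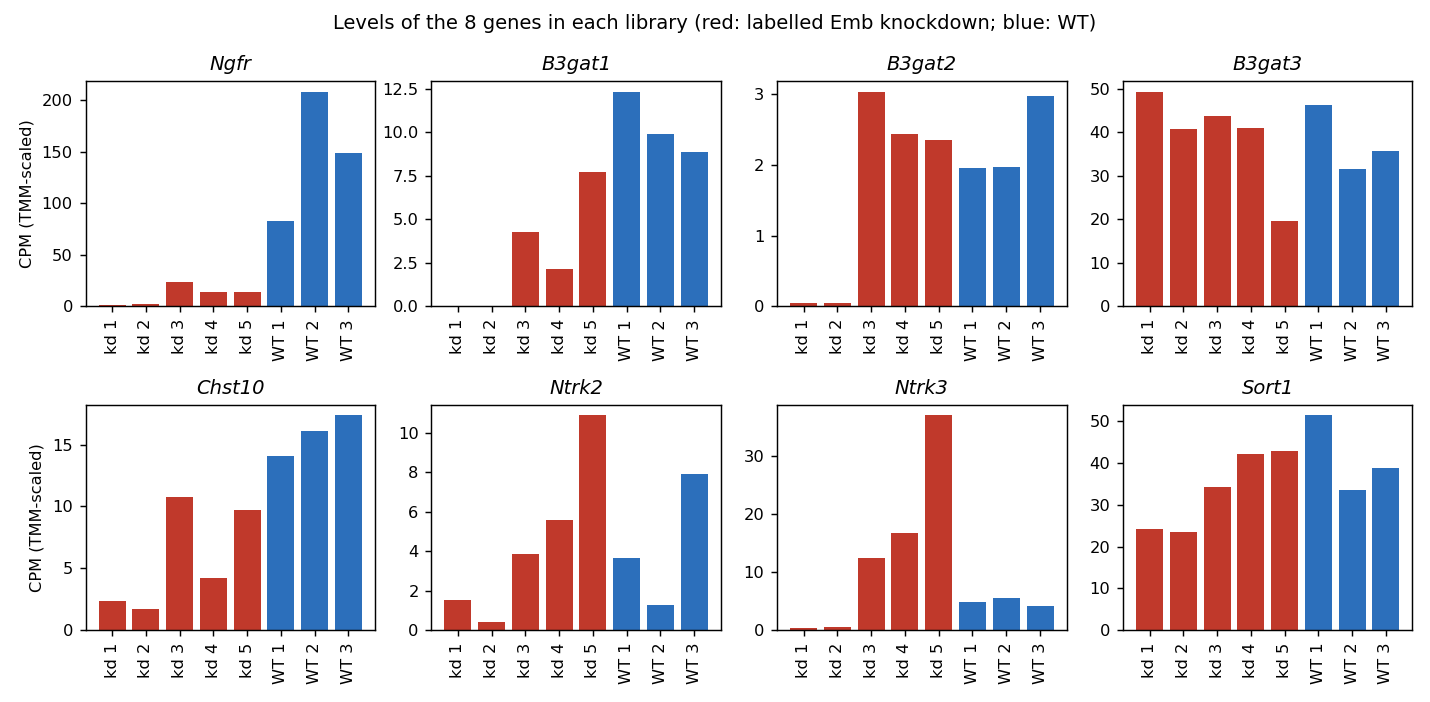
Level of each of the 8 genes (CPM, vertical axis from 0, 1 scale per gene) in each library, red bars for libraries labelled Emb knockdown (kd) and blue bars for WT. Ngfr lies between 1.55 and 23.6 CPM in the 5 libraries labelled kd and between 83.3 and 208 CPM in WT, while Ntrk3 is above WT in kd 3 to 5 and below it in kd 1 and 2.

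Ngfr lies on the minus strand of chromosome 11 (GRCm38.p6, chr11:95568818-95587698, RefSeq). As the gene with the largest difference, it is shown with the stretch upstream of its start. Of the 8 genes, 5 had an entry in the RefSeq promoter table of GRCm38.p6. The stretch printed is chr11:95587736-95587948, minus strand, 213 bases that end 37 bases before the RefSeq start, where a longer GENCODE transcript begins. It is written 5′ to 3′, with capitals marking each GC box, GGGCGG on either strand.
Ngfr upstream: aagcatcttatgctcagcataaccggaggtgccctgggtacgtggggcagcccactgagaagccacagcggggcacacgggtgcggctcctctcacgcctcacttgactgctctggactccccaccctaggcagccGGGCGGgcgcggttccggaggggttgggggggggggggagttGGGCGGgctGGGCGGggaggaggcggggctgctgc
The stretch was 70.9% G or C, where the median of all 32851 stretches of the same length and offset was 51.6%. It held 3 GC boxes, and 27.4% of all stretches held at least 1 and 5.47% at least 3. It held 1 E-box (CANNTG), and 61.1% of all stretches held at least 1. It held no ACAAAG or ACAATG, the cores bound by SOX factors, which 22.5% of all stretches held on either strand. These matches describe letters only.

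Ngfr was present at 1.55 and 2.17 CPM in the libraries labelled kd 1 and 2, with 23.6, 14.1 and 14.2 CPM in those labelled kd 3, 4 and 5. WT libraries 1, 2 and 3 had 83.3, 208 and 149 CPM. All 5 libraries labelled kd were below all 3 WT libraries, and the lowest WT library was above the highest library labelled kd by more than the range within the latter. The means were 17.3 ± 5.47 CPM (SD, n = 3) in the libraries labelled kd 3 to 5 and 147 ± 62.5 CPM (SD, n = 3) in WT, an 8.49-fold difference. In the 6 libraries Ngfr fell by 3.08 ± 0.37 (SE) on the log2 scale in edgeR's quasi-likelihood test (adjusted p = 0.0039). It passed in each of the 6 fits that left out 1 library, the highest adjusted p being 0.047, without the library labelled kd 4. With all 8 libraries the log2 fold change was -3.72 ± 0.86 (SE) and did not pass in edgeR's test (adjusted p = 0.137), while DESeq2's Wald test gave an adjusted p of 0.000793.

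Genes of enteric neural crest cells and of endothelium passed as lower in the 6 libraries, those of leukocytes and mesenchyme as higher, and those of gut epithelium in neither direction. In the 6 libraries 7 of 10 progenitor genes and 5 of 9 tested genes of glia and Schwann cell precursors passed as lower in edgeR's test, with median log2 fold changes of -1.19 and -1.31. Of 10 enteric neuron genes 5 passed as lower (median -0.98), and of 10 endothelial genes 9 passed as lower (median -1.93). Over all genes tested in the 6 libraries, 9.37% passed as lower. The summed endothelial level was 109 to 217 CPM in the libraries labelled kd 3 to 5 and 533 to 731 CPM in WT, and the summed glial level was 129 to 156 CPM and 396 to 417 CPM. In each of these lists no defining gene was at 0 in all libraries of either group. Without the library labelled kd 4, 3 of the 7 progenitor calls, all 5 neuron calls, 3 of the 5 glial calls and 5 of the 9 endothelial calls were lost, and without WT library 3 it was 2, 3, 3 and 5. Of 9 gut epithelium genes 0 passed (median 0.14), and of 6 mesothelium genes 2 passed as lower (median -0.57). With all 8 libraries no gene of any of these lists passed in edgeR's test, and the medians were -1.92 for progenitor, -1.64 for glial, -1.69 for neuron and -2.37 for endothelial genes. The part of these genes in the difference of Ngfr was not tested. In libraries made from many cells, fewer cells of a type and less RNA per cell cannot be told apart.

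Within each library the level of Ngfr was set against the summed level of the 10 progenitor genes. Ngfr amounted to 0.735% and 1.31% of that sum in the libraries labelled kd 1 and 2, and to 2.29%, 1.26% and 1.24% in those labelled kd 3, 4 and 5. In WT libraries 1, 2 and 3 it amounted to 2.75%, 7.26% and 5.13%. The groups did not overlap, although the library labelled kd 3 came close to WT library 1. On the log2 scale, with 0.5 CPM added to both levels, the ratio was lower by 1.71 in the libraries labelled kd than in WT (exact two-sided permutation test over 56 splits of 8 libraries, p = 0.0357, the smallest this design allows). Without the 2 libraries that stood apart the difference was -1.58 (exact two-sided permutation test, p = 0.1, the smallest that 3 against 3 allows). Leaving out any 1 of the 8 libraries gave an exact permutation p of 0.0571 or 0.0952, the smallest that 7 libraries allow. Groups without overlap stay so when a library is left out, so these values were fixed in advance and are no further support.

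**Figure D2:**
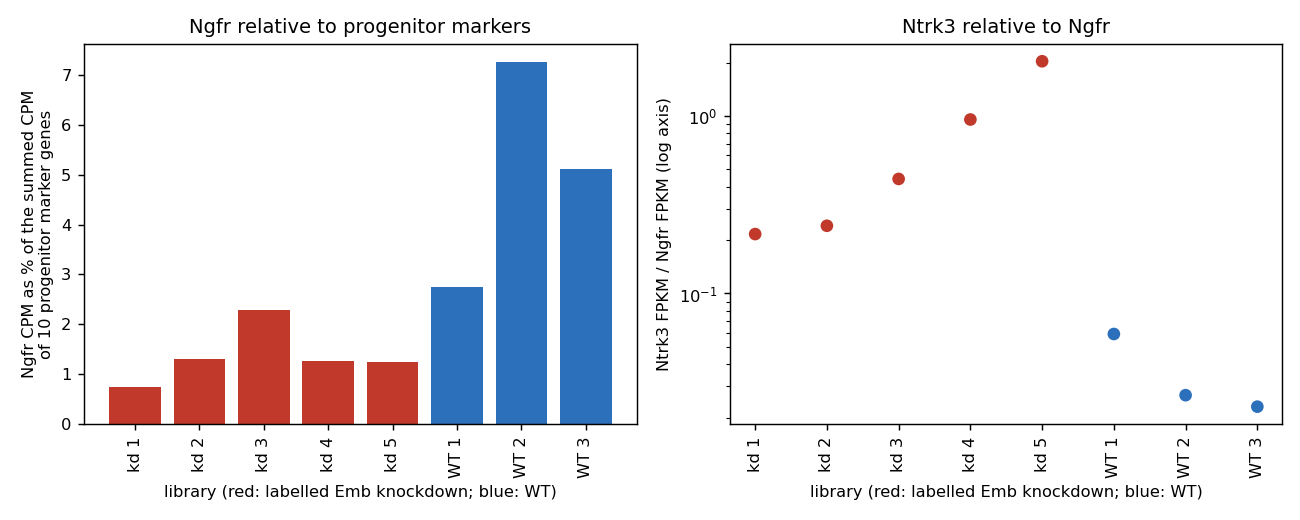
Left, Ngfr CPM as a percentage of the summed CPM of 10 progenitor genes in each library (bars from 0); right, Ntrk3 FPKM divided by Ngfr FPKM on a log axis (points). Red marks libraries labelled Emb knockdown (kd) and blue WT; the left values are 0.735% to 2.29% against 2.75% to 7.26%, and the right values 0.216 to 2.04 against 0.023 to 0.0591.

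The 3 genes that make the CD57 epitope itself were at lower levels than Ngfr in WT per transcript length (FPKM). B3gat1 (plus strand, chr9:26733723-26761350) had 0 counts in the libraries labelled kd 1 and 2, which allows up to 0.155 and 0.141 CPM, and was at 4.26, 2.15 and 7.75 CPM in those labelled kd 3, 4 and 5. WT libraries 1, 2 and 3 had 12.3, 9.92 and 8.88 CPM. All 5 libraries labelled kd were below all 3 WT libraries, with the library labelled kd 5 close to WT library 3. The log2 fold change was -1.13 ± 0.46 (SE) in the 6 libraries and did not pass in edgeR's test (adjusted p = 0.109). Its exons share 58 bases with those of Glb1l2 on the other strand. It passed without the library labelled kd 5 (log2 fold change -1.68, adjusted p = 0.0426) and with limma voom (-1.74, adjusted p = 0.00836). With all 8 libraries it was -1.87 ± 1.56 (SE; edgeR, adjusted p = 0.571).

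Chst10 (minus strand, chr1:38863867-38898177), whose product sulfates the epitope, was likewise below WT in every library labelled kd. Chst10 was present at 2.32 and 1.70 CPM in the libraries labelled kd 1 and 2, with 10.7, 4.21 and 9.73 CPM in those labelled kd 3, 4 and 5. WT libraries 1, 2 and 3 had 14.1, 16.1 and 17.4 CPM, the closest neighbours being WT library 1 and the library labelled kd 3. The log2 fold change of -0.94 ± 0.36 (SE) in the 6 libraries did not pass in edgeR's test (adjusted p = 0.0926), nor did that of -1.46 ± 0.64 (SE) in the 8 (adjusted p = 0.275). It passed in the 6 libraries without the library labelled kd 3 (-1.20, adjusted p = 0.0375) and with limma voom (-1.58, adjusted p = 0.0037). Ngfr, B3gat1 and Chst10 were thus the 3 of 8 genes with every library labelled kd below every WT library. Over all genes tested this held for 11.9% with 8 libraries and for 23.0% with 6.

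B3gat2 (plus strand, chr1:23761926-23847865), whose product can also add the glucuronic acid, was close to its detection limit in 2 libraries. B3gat2 had 1.14 and 1.17 expected counts in the libraries labelled kd 1 and 2. It was present at 3.04, 2.43 and 2.35 CPM in the libraries labelled kd 3, 4 and 5, while WT libraries 1, 2 and 3 had 1.96, 1.96 and 2.97 CPM. The latter 2 groups overlapped, with a log2 fold change of 0.18 ± 0.48 (SE; edgeR, adjusted p = 0.809), and with all 8 libraries it was -0.53 ± 1.23 (SE; adjusted p = 0.86). Its exons share 2076 bases with those of Smap1 on the other strand, and reads of the 2 cannot be told apart there without strand. Smap1 was at 85.0 and 70.2 CPM in the 2 libraries in which B3gat2 had about 1 count.

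B3gat3 (plus strand, chr19:8920374-8927236), the gene of the linker enzyme, was detected at 19.6 CPM or more in every library. B3gat3 was present at 49.3, 40.6, 43.8, 41.1 and 19.6 CPM in the libraries labelled kd 1 to 5 and at 46.2, 31.5 and 35.6 CPM in WT libraries 1 to 3. The groups overlapped, and only the library labelled kd 5 was below the WT libraries. The log2 fold change was -0.11 ± 0.31 (SE; edgeR, adjusted p = 0.816) in the 6 libraries and 0.04 ± 0.32 (SE; adjusted p = 0.961) in the 8, and its sign turned with the scaling in the latter. Per transcript length, B3gat3 made up 87.7% to 89.9% of the summed FPKM (fragments per kilobase, scaled to library depth) of the 3 genes in WT, 83.1% to 96.0% in the libraries labelled kd 3 to 5 and over 99.9% in the other 2. B3gat1 made up 7.92% to 10.6% in WT and 3.47%, 2.06% and 13.6% in the libraries labelled kd 3, 4 and 5.

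Ntrk3 (minus strand, chr7:78179986-78581034), the gene of TrkC, was the only one of the 8 that passed as higher. Ntrk3 was present at 12.4, 16.8 and 37.1 CPM in the libraries labelled kd 3, 4 and 5, while WT libraries 1, 2 and 3 had 4.91, 5.57 and 4.07 CPM. In the libraries labelled kd 1 and 2 it was at 0.309 and 0.612 CPM, from 6 and 13 counts. The libraries labelled kd thus lay on both sides of WT, 3 above and 2 below. In the 6 libraries the means were 22.1 ± 13.2 CPM and 4.85 ± 0.752 CPM in WT (SD, n = 3 each), a 4.55-fold difference, and the log2 fold change was 2.19 ± 0.42 (SE; edgeR, adjusted p = 0.0144). Over all genes tested, 20.4% had each of the 3 libraries labelled kd above each WT library, as Ntrk3 did. The call was lost without the library labelled kd 4 (adjusted p = 0.0611), WT library 2 (0.0545) or WT library 3 (0.0688), with log2 fold changes of 2.34, 2.29 and 2.07. With all 8 libraries the log2 fold change was 1.47 ± 1.35 (SE; edgeR, adjusted p = 0.612), and it was -0.23 on log2(FPKM + 0.1).

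Genes of gut mesenchyme were higher in the same 3 libraries as Ntrk3. Of 10 mesenchyme genes 6 passed as higher in the 6 libraries and none as lower (edgeR, median log2 fold change 0.97), and their summed level was 5141 to 5652 CPM against 2642 to 3903 CPM in WT. In the libraries labelled kd 1 and 2, where Ntrk3 was lowest, that sum was 66.8 to 488 CPM. Of 10 smooth muscle and pericyte genes 3 passed as higher (median 0.51), with sums of 1785 to 3192 CPM against 1638 to 2431 CPM in WT. Over all genes tested in the 6 libraries, 11.1% passed as higher. No gene of either list was at 0 in all libraries of a group. With all 8 libraries the medians were 0.30 for mesenchyme and -0.12 for smooth muscle and pericyte genes, and none passed. Without the library labelled kd 4 or WT library 2, 5 of the 6 mesenchyme calls and all 3 smooth muscle calls were lost, and 3 of the 6 without WT library 1. The part of these genes in the difference of Ntrk3 was not tested.

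**Figure D3:**
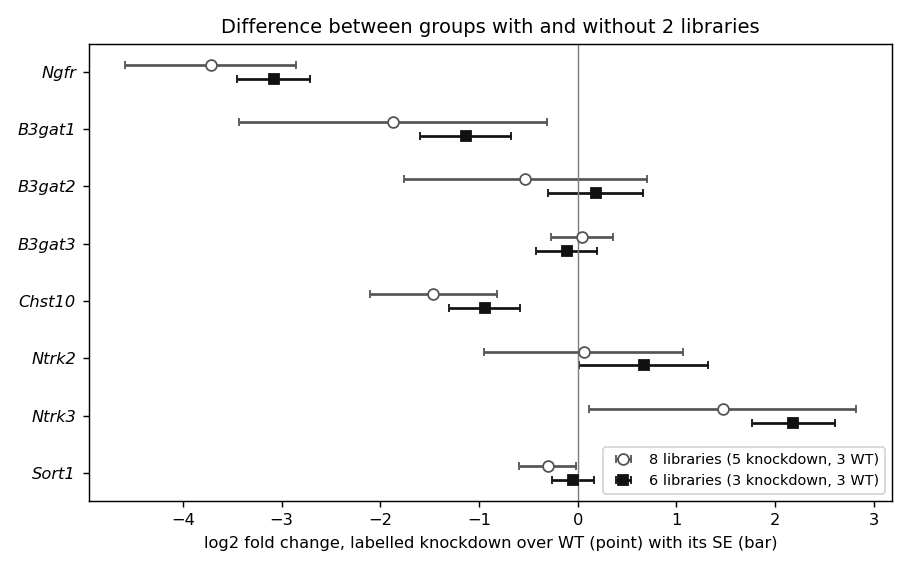
Log2 fold change of each of the 8 genes, libraries labelled kd over WT, with its standard error as a bar; open circles are fits of 8 libraries and filled squares fits of 6. Ngfr is at -3.08 and Ntrk3 at 2.19 in the fit of 6, and the bars of B3gat2, B3gat3 and Sort1 cross 0 in that fit.

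Ntrk2 (plus strand, chr13:58806472-59133970), the gene of TrkB, varied as much within the groups as between them. Ntrk2 was present at 3.85, 5.57 and 10.9 CPM in the libraries labelled kd 3, 4 and 5, while WT libraries 1, 2 and 3 had 3.65, 1.26 and 7.89 CPM. The libraries labelled kd 1 and 2 had 1.55 and 0.424 CPM. The groups overlapped in both comparisons. The log2 fold change was 0.67 ± 0.66 (SE; edgeR, adjusted p = 0.488) in the 6 libraries and 0.06 ± 1.01 (SE; adjusted p = 0.983) in the 8, and it was -0.04 in the 8 without a composition factor. Both Trk genes encode long forms with and short forms without the kinase domain. GENCODE M21 lists 7 coding transcripts of Ntrk2 with coding lengths of 1398 to 2463 bases and 6 of Ntrk3 with 248 to 2592 bases, and the counts per gene do not separate them.

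Sort1 (plus strand, chr3:108283974-108361519), the gene of sortilin, was at similar levels in the 6 libraries. Sort1 was present at 34.3, 42.1 and 42.9 CPM in the libraries labelled kd 3, 4 and 5, while WT libraries 1, 2 and 3 had 51.4, 33.5 and 38.9 CPM. It stood at 24.1 and 23.5 CPM in the libraries labelled kd 1 and 2, below each of the other 6. The log2 fold change was -0.05 ± 0.21 (SE; edgeR, adjusted p = 0.886) in the 6 libraries and -0.30 ± 0.29 (SE; adjusted p = 0.63) in the 8. Its exons share 338 bases with those of the antisense gene Gm12523. In the 6 its sign turned without the library labelled kd 3 and without WT library 1.

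**Figure D4:**
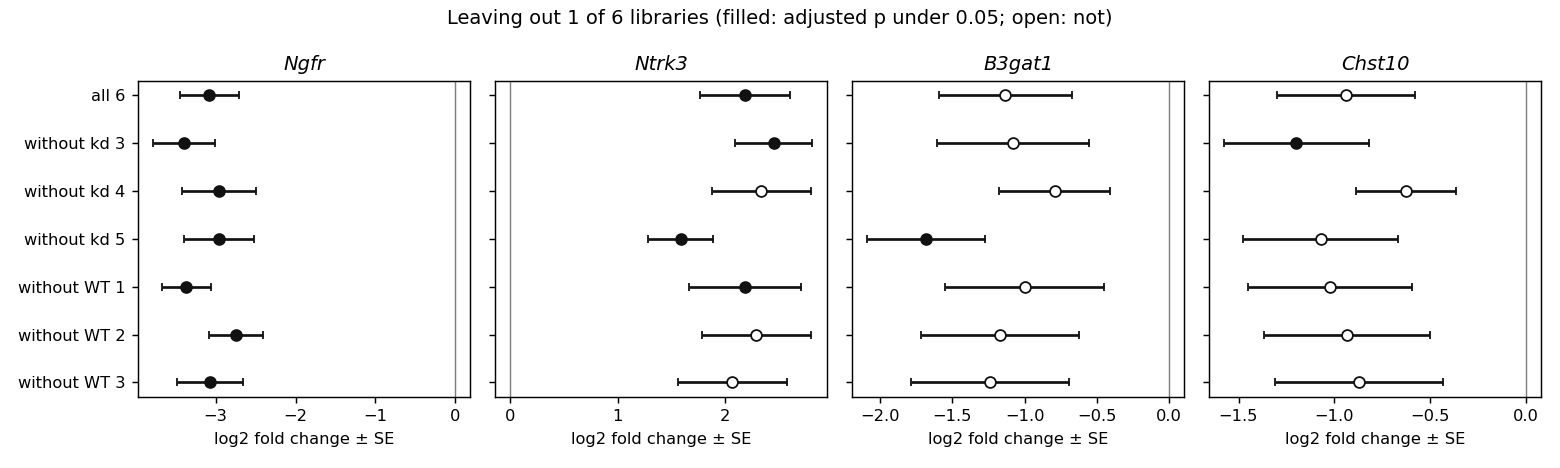
Log2 fold change with its standard error (horizontal axis, 1 scale per gene) for Ngfr, Ntrk3, B3gat1 and Chst10 in the 6 libraries and after leaving out each in turn; filled points have an adjusted p under 0.05. Ngfr is filled throughout (-3.39 to -2.75), Ntrk3 (1.59 to 2.46) is open in 3 of 6 fits, and B3gat1 and Chst10 are each filled in 1.

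The order of the 8 genes by level per transcript length differed between the groups. In WT, Ngfr came first at 52.1 ± 23.7 FPKM (SD, n = 3), overlapping with B3gat3 at 31.0 ± 4.99 FPKM. Sort1 (6.92 ± 1.39 FPKM) and Chst10 (6.13 ± 0.792 FPKM) overlapped next, followed without overlap by B3gat1 (3.14 ± 0.492 FPKM) and Ntrk3 (1.63 ± 0.406 FPKM). B3gat2 and Ntrk2, at 0.623 ± 0.163 and 0.607 ± 0.519 FPKM, came last and overlapped. In the libraries labelled kd 3 to 5 B3gat3 came first (26.9 ± 10.2 FPKM), and Sort1 (6.44 ± 0.738), Ntrk3 (5.85 ± 3.37) and Ngfr (5.75 ± 1.90 FPKM) followed with overlap between neighbours. The FPKM of Ntrk3 divided by that of Ngfr was 0.442, 0.956 and 2.04 in the libraries labelled kd 3, 4 and 5 and 0.216 and 0.241 in the other 2. In WT it was 0.0591, 0.0267 and 0.023, below each library labelled kd. Ntrk3 and Ngfr were the 2 genes that passed, in opposite directions, in the 6 libraries, so there the ratio restates those calls. In the libraries labelled kd 1 and 2 both genes were below WT. Ntrk3 had 6 and 13 counts there and Ngfr 30 and 46.

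The neurotrophin ligand genes did not pass in either comparison. Of 4 ligand genes tested with edgeR, none passed in the 6 libraries (median log2 fold change 0.40) or in the 8 (median -0.28). Bdnf, the ligand gene of TrkB, was at 14.5 ± 2.90 CPM in the libraries labelled kd 3 to 5 and 7.59 ± 1.88 CPM in WT (SD, n = 3 each; adjusted p = 0.0577). Ntf3, the ligand gene of TrkC, was at 9.64 ± 1.56 and 6.85 ± 1.86 CPM (adjusted p = 0.298), and Ntf5, which encodes NT-4, at 4.65 ± 1.62 and 3.75 ± 0.725 CPM (adjusted p = 0.622). Both Bdnf and Ntf3 were under 1 CPM in the libraries labelled kd 1 and 2.

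Among 62 genes on 9 lists of the neurotrophin and CD57 pathways, 60 were tested in the 6 libraries, of which 2 passed as higher, 10 as lower and 48 did not pass in edgeR's test. These 12 calls are a share near the 20.4% of all genes, and with 8 libraries none passed. Of 8 other neurotrophin and sortilin receptor genes 1 rose and 1 fell. Sorl1, a relative of sortilin, rose from 14.3 ± 1.48 CPM in WT to 31.5 ± 3.61 CPM (SD, n = 3 each; adjusted p = 0.0126), and it stood at 139 and 109 CPM in the libraries labelled kd 1 and 2. Of 10 leukocyte genes 9 passed as higher in the 6 libraries (median log2 fold change 2.11), with 4 of these calls lost without the library labelled kd 4, and their part in the difference of Sorl1 was not tested. Sorcs1, another relative, fell from 21.6 ± 3.88 to 9.76 ± 1.60 CPM (adjusted p = 0.0196). With 8 libraries the log2 fold changes were 2.26 for Sorl1 and -1.87 for Sorcs1 (edgeR, adjusted p = 0.159 and 0.529). Lingo1, a co-receptor of p75 in axon growth inhibition, was at 4.55 ± 1.85 and 10.1 ± 2.25 CPM without passing (adjusted p = 0.0702).

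Among genes of signalling downstream of the receptors, 4 of 10 Trk adaptor genes fell in the 6 libraries, 1 rose and 5 did not pass in edgeR's test. Plcg1, which encodes the phospholipase recruited to activated Trk receptors, fell from 63.0 ± 11.1 to 6.88 ± 6.17 CPM (SD, n = 3 each; log2 fold change -3.18 ± 0.59, adjusted p = 0.0136). Plcg1 was at most at 15.2 CPM in the libraries labelled kd 1 and 2, so that all 5 libraries were below WT. The adaptor gene Sh2b1 fell by 0.73 ± 0.18 on the log2 scale (adjusted p = 0.0261), and Kidins220, a Trk substrate gene, rose by 0.89 ± 0.24 (adjusted p = 0.0341). With 8 libraries the log2 fold changes were -2.75 for Plcg1, -0.50 for Sh2b1 and 0.60 for Kidins220, none of which passed (edgeR, adjusted p = 0.137, 0.278 and 0.392). Of 6 p75 adaptor genes Arhgdia and Maged1 fell (adjusted p = 0.0454 and 0.0479) and 4 did not pass, the next being Irak1 (adjusted p = 0.22). Arhgdia had 1390 and 1426 CPM in the libraries labelled kd 1 and 2, above its WT range of 665 to 694 CPM, and its log2 fold change turned from -0.55 with 6 libraries to 0.31 with 8 (adjusted p = 0.791). Maged1 had 53.6 and 86.5 CPM there, below WT. The median of this list was -0.25 with 6 libraries and 0.26 with 8. Of 8 genes of p75 and proneurotrophin cleavage Furin, the gene of a proneurotrophin convertase, and Ncstn, a γ-secretase subunit gene, fell by 0.68 ± 0.17 and 0.96 ± 0.28 on the log2 scale (adjusted p = 0.0282 and 0.0441). Both were above WT in the libraries labelled kd 1 and 2, Furin with 72.0 and 58.0 CPM against at most 50.1 CPM and Ncstn with 209 and 212 CPM against at most 176 CPM. The median of this list was -0.20 with 6 libraries and 0.40 with 8. Psenen, of the same complex as Ncstn, had a log2 fold change of 0.63 ± 0.22 without passing (adjusted p = 0.0676).

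Of 7 genes that supply the donors for the CD57 epitope 1 fell. Slc35b2, which encodes the carrier that brings the sulfate donor into the Golgi, fell from 107 ± 10.1 to 42.0 ± 19.9 CPM (SD, n = 3 each; log2 fold change -1.35 ± 0.32, adjusted p = 0.0235 in edgeR's test). In the libraries labelled kd 1 and 2 Slc35b2 was at 148 and 158 CPM, above WT, and the log2 fold change with 8 libraries was -0.31 (adjusted p = 0.829). Ugdh and Papss1, the genes of the enzymes that make the glucuronic acid and sulfate donors, did not pass (adjusted p = 0.145 and 0.16). None of 8 genes of proteins that can carry the epitope passed (median log2 fold change -0.16). L1cam, a neural adhesion molecule gene, was at 39.1 ± 14.9 and 54.0 ± 2.79 CPM (adjusted p = 0.222). Tnr, the tenascin-R gene, was at 13.3 ± 9.85 and 7.44 ± 0.876 CPM (adjusted p = 0.235). All 12 calls among these pathway genes were lost without the library labelled kd 4, and all 12 without WT library 3. Between 8 and 11 were lost without the library labelled kd 5, WT library 1 or WT library 2, and 0 without that labelled kd 3.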

How the data were processed

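The members and gene lists were chosen with earlier results of these data known. Per the labels' protocols, full-length cDNA was amplified with Smart-seq2, which marks no strand and uses no molecular identifiers, and libraries were made with a transposon. The submitters' processing notes name GRCm38.p6, Bowtie2 and HISAT. The counting tool was not given in the sources used here. Per the file headers, the authors deposited expected counts per gene, FPKM, TPM and a normalised count signal (one value of each per library) and 8 columns of group means. TPM, the normalised count signal and the group means were not used.

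Expected counts were rounded, filtered with filterByExpr, scaled with TMM and tested two-sided with edgeR 4.0.16 (R 4.3.3; glmQLFit, robust, and glmQLFTest), with Benjamini-Hochberg adjustment over all genes tested. CPM values use the scaling of 8 libraries. FPKM served to compare levels between genes. Alternatives were DESeq2 1.42.0, its size factors, no composition factor, no filter, voom and log2(FPKM + 1 or 0.1) in limma 3.58.1 (genes with at least 1 FPKM in 3 libraries), a replicate block and each library left out. The tests were tested on simulated data. Counts were drawn for each gene on its own from the means, library sizes and dispersions of these fits, with 200 genes changed. In the 6 real libraries 20.4% of genes passed, and differences shared by many genes were not simulated. The shares below therefore hold for the simulated setting only. With 6 libraries and 14897 genes, the test recovered 57 of 60 simulated 32-fold changes, 53 of 70 of size 4-fold and 15 of 70 of size 2-fold, and 6 of 131 calls were false. With 8 libraries and 15001 genes the numbers were 43, 10 and 0, and 2 of 55 calls were false.

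All 8 members are named whatever their p, with up to 3 genes of smallest p in the 6 libraries from each pathway list and the 3 genes most like each of 4 members. From the cell type lists up to 2 genes of highest level were allowed. Glb1l2, Gm12523 and Smap1 were named after their values were seen. Some genes of the lists are not reported here by name.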

Additional observations from a re-analysis of the deposited data

How the results depend on the processing

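With 8 libraries DESeq2 called 2192 genes and voom 3720, and leaving out 1 library gave 0 to 2. DESeq2 called 1 and voom 2 of the 8 members, and leaving out 1 library gave 0. With 6 libraries voom called 6875 genes, among them 4 members, and leaving out 1 library gave 180 to 5982 genes and 1 to 3 members, against 3090 and 2. The counts of genes were 5982 without the library labelled kd 3, 180 without kd 4, 1663 without kd 5, and 1388, 417 and 294 without WT libraries 1, 2 and 3. Dropping the composition factor moved the median log2 fold change of all genes from 0.07 to -0.17 with 8 libraries. Ngfr kept its sign in all 16 alternatives with 8 libraries, passing in 2, and passed in all 13 with 6. Ngfr relative to progenitor genes ranged from -2.09 to -1.39 when 1 of the 8 libraries was left out and from -1.96 to -1.26 for 1 of the 6. No FPKM value was tested for B3gat2 and Ntrk2, which did not reach the FPKM minimum.

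Signs turned for B3gat3, Ntrk2 and Ntrk3 with 8 libraries and for B3gat3 and Sort1 with 6, and the cause was not tested. With 8 libraries no member passed in edgeR's test, and Ntrk3, which turned there, had passed with 6. With 6 libraries Ngfr and Ntrk3 kept their sign in all 13 alternatives. With 8 libraries B3gat3 was at -0.23 with plain library sizes, -0.27 on log2(FPKM + 1) and -0.28 on log2(FPKM + 0.1), and from -0.063 to 0.22 when 1 library was left out. Ntrk2 was at -0.041 with plain library sizes and from -0.57 to 0.86 when 1 was left out. Ntrk3 was at -0.23 on log2(FPKM + 0.1). With 6 libraries B3gat3 was at 0.027 with voom and from -0.32 to 0.18 when 1 was left out, and Sort1 at 0.078 with voom and from -0.18 to 0.13.

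With the replicate number as a block in the 8 libraries, 0 genes passed, Ngfr was at -5.06 (adjusted p = 0.309), and Ntrk2 and Ntrk3 turned to -1.27 and -2.10. Numbers 4 and 5 occur only in the group labelled kd, so the differences in this fit come from kd 1, 2 and 3 against WT. Those include the 2 libraries that stood apart. Among the libraries labelled kd, Ntrk2 and Ntrk3 were highest in kd 4 and 5, which do not inform these differences. Same-numbered libraries correlated at -0.03, 0.04 and -0.04 in their deviations from the group mean across genes. In the group labelled kd these deviations include the distance of kd 1 and 2 from the rest. The correlations therefore cannot decide whether the numbers pair libraries. With 6 libraries no block could be fitted because the groups share 1 number.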

Other observations

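Enzymes next to those of the CD57 epitope were also measured. Of 5 other genes of the glycosaminoglycan linker, to which the product of B3gat3 belongs, none passed in edgeR's test with 6 libraries (median log2 fold change -0.53) or with 8. B4galt7, a galactosyltransferase gene of the linker, was at 20.1 ± 2.99 CPM in the libraries labelled kd 3 to 5 and 31.2 ± 6.29 CPM in WT (SD, n = 3 each; adjusted p = 0.0784). Fam20b, the linker xylose kinase gene, was at 51.0 ± 11.5 and 34.0 ± 7.00 CPM (adjusted p = 0.1), and B3galt6 at 12.4 ± 1.88 and 17.9 ± 0.479 CPM (adjusted p = 0.119). Of 6 sulfotransferase genes related to Chst10, 4 were tested and none passed, the smallest adjusted p being 0.0914 for Chst12. Chst12 reached 82.4 CPM in the library labelled kd 1 and 63.3 CPM in that labelled kd 2, above the 15.8 to 27.5 CPM of WT, whereas Chst10 was at its lowest in these 2 libraries.

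Profiles over the 8 libraries were compared by the root mean square difference of log2 CPM after centring each gene on its mean, given as a description since all genes share the same libraries. The closest profiles to that of Ngfr were those of Gm21451 (0.57), Gpr182 (0.57) and Tspan18 (0.57). Closest to B3gat1 were Syn1 (0.20), Syt5 (0.26) and Celf6 (0.31), each with 0 counts in the libraries labelled kd 1 and 2, as B3gat1 had. Closest to Ntrk3 were Col27a1 (0.30), Adamts19 (0.36) and Plagl1 (0.38), and closest to Ntrk2 were Zc2hc1c (0.45), Pde10a (0.46) and Grin3b (0.52).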
